A study of Drosophila melanogaster with 8 samples.

Results

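The genes described here are 61 Drosophila melanogaster genes that carried only a CG number in the array annotation and whose transcripts gave higher log ratios in asense mutant cells than in control cells. They were chosen on the measured values themselves. A gene qualified when it had a log ratio in all 5 sample pairs, when every pair was at or above 0.3, and when the mean over pairs was at or above 0.8. The array annotation held 5508 CG genes among 11979 genes with 1 symbol, 2394 of the CG genes had a value in all 5 pairs, and 61 of those met the thresholds. Because the mutant and control log ratios selected the members, those log ratios are given below as a description, with no test.

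A CG number is the identifier a Drosophila gene receives when it is predicted from the genome sequence, and it stays the gene's symbol until a phenotype, a product or a relative gives the gene a name. Asense belongs to the achaete-scute complex and encodes a transcription factor of the basic helix-loop-helix family. It marks neuroblasts, the neural stem cells of the fly, which divide to renew themselves and to give ganglion mother cells, whose progeny become neurons and glia.

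RNA came from neuroblast and ganglion mother cells (GMCs) of the ventral nerve cord of stage 11 embryos raised at 25 °C, with 50 to 100 cells lysed per sample. Mutant cells had the genotype ase1/ase1. Control cells, called wildtype in the labels, had the genotype ase1/FM7-KrGFP, in which FM7 is a balancer chromosome and KrGFP a fluorescent marker, so the controls also carried 1 mutant copy and the comparison was between homozygous and heterozygous cells. Mutant and control cDNA, amplified by PCR, were hybridised together on 8 two-colour arrays that form 5 pairs, numbered 1, 3, 4, 5 and 6. Pairs 1, 4 and 5 had an array a and an array b with the same source names, which were averaged. The mutant was in Cy5 on 3 arrays (pairs 1 and 3) and in Cy3 on 5 arrays (pairs 4, 5 and 6). Whether each pair came from its own embryos is not in the labels, so the spread between pairs may be technical.

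The deposited values were log ratios, read here as log2 of mutant over control, so that a log ratio of 1 stands for 2-fold. Spot intensities were not used here, so no transcript level, and no check of the cells by marker level, can be given. The direction was taken from asense (ase), which had a mean log ratio of -6.06 ± 0.47 (SD, n = 5 pairs) and lay between -6.50 and -4.81 on the 8 arrays. Exact zeros, taken as not measured, made up 36.3% to 43.7% of each array. In the marker lists with any call, 3 of 8 measured neuroblast genes, ase among them, 3 of 5 GMC and neuron genes 2 of 4 mesoderm genes, 2 of 3 hemocyte genes, 1 of 3 glial genes and 1 of 2 germ line genes were called lower by limma, a moderated linear model fitted to all features, at a Benjamini-Hochberg adjusted p below 0.05, beside 11.4% of all features. Ectoderm markers had a median log ratio of 0.36, with 2 of 4 called higher and 1 lower. Of all features, 6.97% were called higher. The median was -0.39 for neuroblast, -0.96 for GMC and neuron, -1.15 for mesoderm and -0.45 for hemocyte genes. It was -0.23 for glial and -0.29 for germ line genes. The trachea and gut list (median 0.01, 2 measured genes) and the midline list (0.72, 1 measured gene) had 0 called. The part of these markers in the results was not tested, and in such pooled samples a change in the number of cells of a type and a change in RNA per cell cannot be told apart.

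Of the 2394 CG genes with 5 pair values, 98 were at or above 0.3 in every pair and 83 had a mean at or above 0.8. The thresholds together kept 2.55% of the CG genes, and the same thresholds kept 97 of 4190 genes with other kinds of symbol (2.32%). With both thresholds mirrored below 0, 103 CG genes (4.3%) and 161 other genes (3.84%) met them. CG genes therefore met either form of the rule at shares close to those of other genes, and the lower form held more genes than the higher form.

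The 4 members nearest to the threshold on the mean were CG13917 at 0.82, CG12133 and CG11700 at 0.84 and CG15445 at 0.85. Just outside it lay CG15674 at 0.797, CG31278 at 0.79, CG30338 at 0.79 and CG4021 at 0.79. The lowest pair values inside the rule were 0.32 for CG42562, 0.33 for CG12133, 0.33 for CG9386 and 0.34 for CG13917. Just outside it lay CG11498, whose pair 4 was 0.29 beside a mean of 1.46, then CG7724 at 0.21, CG10602 at 0.19 and CG16815 at 0.18.

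**Figure D1:**
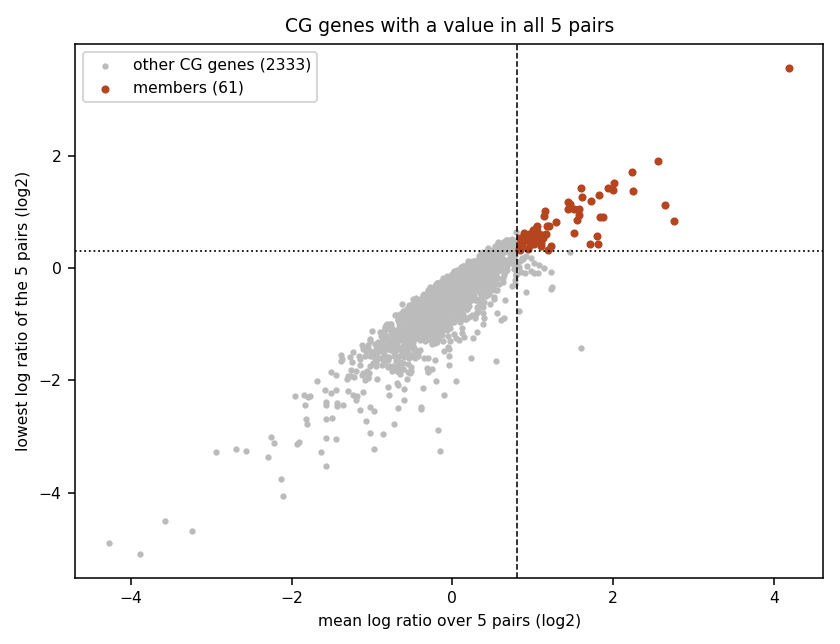
Lowest of the 5 pair log ratios (log2, vertical axis) against the mean log ratio (log2, horizontal axis) for 2394 CG genes, with the 61 members in red, the mean threshold of 0.8 dashed and the pair threshold of 0.3 dotted. The members fill the upper right corner without a gap to the other genes at either threshold, and CG15098 stands apart at the top with a mean of 4.19.

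The median of the members' mean log ratios was 1.17, beside -0.07 over all CG genes and -0.06 over all features. The means ran from 0.82 to 4.19, with 7 members at 2 or above, 39 from 1 to 2 and 15 under 1. The limma fit called 61 of 61 members higher, beside 579 of 8306 features (6.97%) called higher and 947 (11.4%) called lower. The rule used the same contrast, so nothing is read from that count.

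CG15098, on arm 2R, had the largest mean among the members. Its log ratios were 3.72 in pair 1, 3.56 in pair 3, 3.83 in pair 4, 3.85 in pair 5 and 5.99 in pair 6, with a mean of 4.19 ± 1.01 (SD over 5 pairs, as for every ± below), or 18.2-fold. The first 4 of these pairs lay close together and pair 6 stood above them. On single arrays it was 2.94 on 1a, 4.50 on 1b, 2.68 on 4a, 4.98 on 4b, 2.76 on 5a and 4.94 on 5b, so array b was the higher of each repeat.

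CG13738, on 3L, had log ratios of 2.81, 4.09, 2.99, 0.84 and 3.05 in pairs 1, 3, 4, 5 and 6 and a mean of 2.76 ± 1.18. Pair 5 was the low one, and its arrays had opposite signs, -0.79 on 5a and 2.47 on 5b. CG14736, on 3R, had log ratios of 3.20, 1.13, 2.40, 4.89 and 1.63 in the same order and a mean of 2.65 ± 1.48, which was the largest SD among the members. It had a value on 5 arrays, so each of its pairs rested on 1 array, and array a alone, which leaves pairs 3 and 6, gave a mean of 1.38. CG16813, on 2L, had 2.40, 1.91, 2.05, 2.03 and 4.37 and a mean of 2.55 ± 1.03, with pair 6 again standing above 4 similar values.

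CG4570, on 3R, had log ratios of 2.20, 3.19, 1.96, 2.53 and 1.37 in pairs 1, 3, 4, 5 and 6, for a mean of 2.25 ± 0.68. Pair 3 was its highest and pair 6 its lowest, the reverse of the order in CG16813. CG15345, on X, had 1.70, 2.46, 2.27, 2.64 and 2.09 and a mean of 2.23 ± 0.36. The gene table now lists it as CR15345, a pseudogene. Probe sequences were not used here, so whether its probe also binds transcripts of other genes was not examined. CG3078, on X, had 2.08, 1.86, 1.52, 1.88 and 2.69 and a mean of 2.004 ± 0.43, with pair 4 lowest and pair 6 highest.

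CG17230, on 3R, had log ratios of 1.53, 2.76, 2.08, 2.21 and 1.38 in pairs 1, 3, 4, 5 and 6 and a mean of 1.99 ± 0.56. CG15882, on X, had 2.59, 1.44, 2.29, 1.42 and 1.91 and a mean of 1.93 ± 0.52. In these genes every pair exceeded 1.3, but the pairs that were high differed, pair 3 in the former and pair 1 in the latter. CG4338, on 3R, had 2.15, 2.42, 1.01, 0.91 and 2.86 and a mean of 1.87 ± 0.87. Its pairs 4 and 5 lay well under the others.

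CG12842, on 2R, had log ratios of 2.38, 2.10, 1.74, 0.90 and 2.07 in pairs 1, 3, 4, 5 and 6, with a mean of 1.84 ± 0.57 and pair 5 lowest. The gene table now lists it as CR12842, a further pseudogene, and binding of its probe to other transcripts was likewise not examined. CG3253, on 2R, had 1.89, 2.40, 1.73, 1.80 and 1.30 and a mean of 1.82 ± 0.39. Its synonym in the gene table, dibeta3GnT1, follows the naming of N-acetylglucosaminyltransferases, enzymes that add a sugar to glycan chains, and it is the only one of the 12 largest members with a descriptive synonym.

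**Figure D2:**
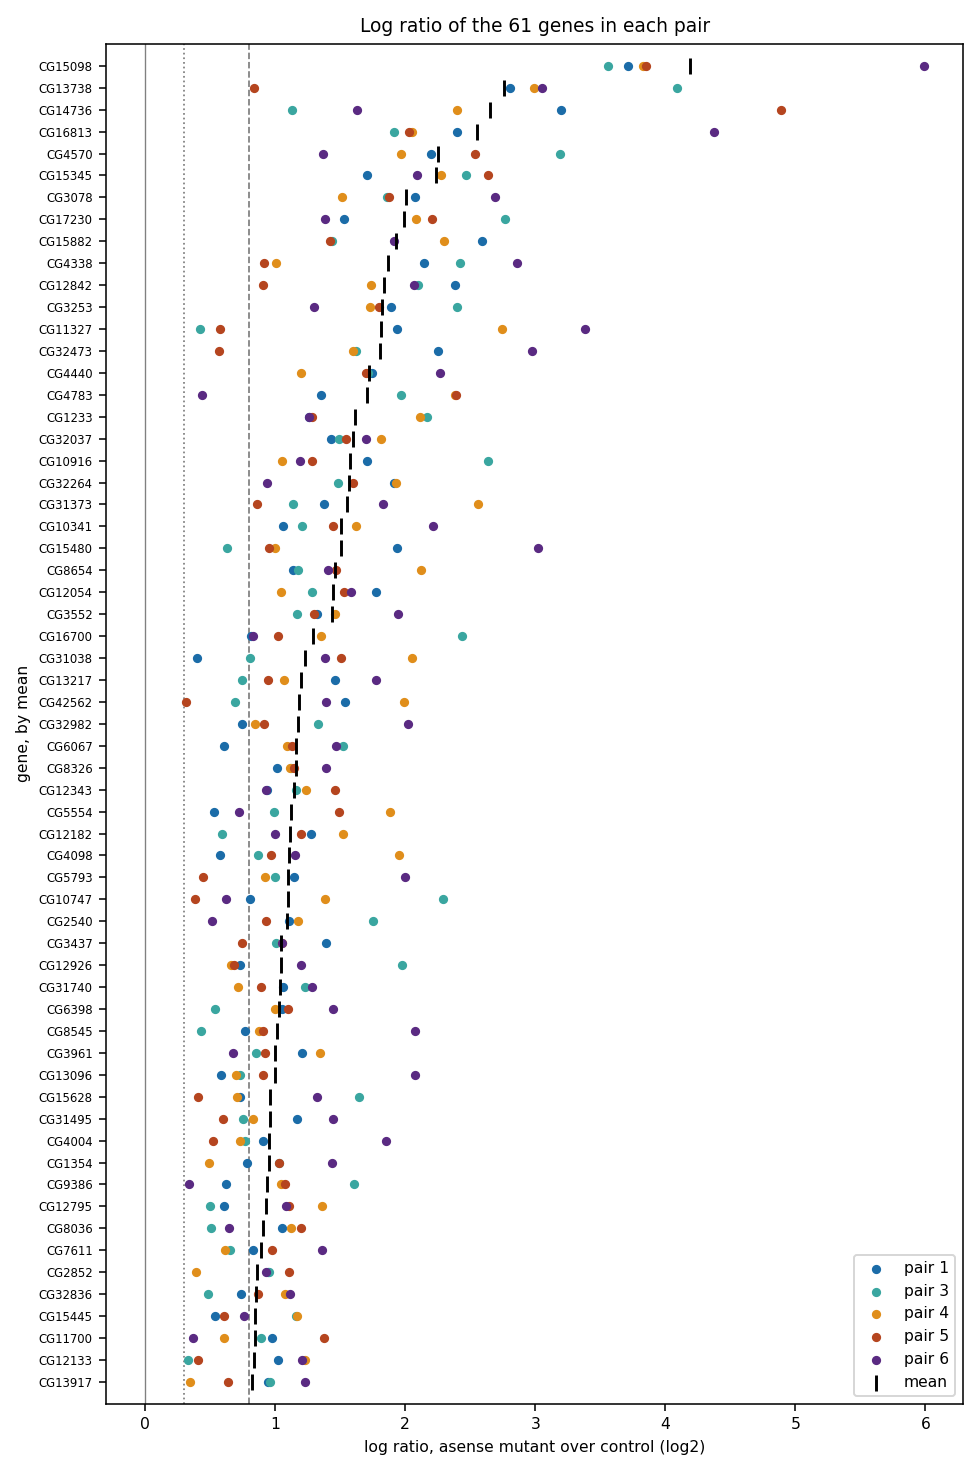
Log ratio (log2, horizontal axis) of each of the 61 members in each of the 5 pairs (coloured points) with the mean over pairs (black bar), genes ordered by mean, the pair threshold of 0.3 dotted and the mean threshold of 0.8 dashed. CG15098 and CG16813 have 1 point, pair 6, far to the right of the other 4, while the points of CG8326 and CG32037 lie close together.

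The members that followed differed mainly in how far the pairs spread. CG11327, on 2L, had log ratios of 1.94, 0.42, 2.74, 0.57 and 3.38 in pairs 1, 3, 4, 5 and 6 and a mean of 1.81 ± 1.30. Pair 5 joined the most discordant arrays among the members, -2.14 on 5a and 3.28 on 5b, and with array a alone the mean was 1.13. CG32473, on 3R, had 2.25, 1.62, 1.6, 0.56 and 2.98 and a mean of 1.80 ± 0.89, and its low pair 5 likewise joined -0.69 on 5a with 1.81 on 5b. CG4440 (2L) had a mean of 1.72 ± 0.38 and CG4783 (3R) one of 1.71 ± 0.83, with pair 6 the highest of CG4440 at 2.26 and the lowest of CG4783 at 0.43. CG1233 (3L) averaged 1.62 ± 0.48, CG10916 (2R) 1.57 ± 0.64 and CG32264 (3L) 1.57 ± 0.40.

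Other members were nearly even across pairs. CG8326, on X, had the smallest SD, with log ratios of 1.01, 1.12, 1.11, 1.14 and 1.39 in pairs 1, 3, 4, 5 and 6 and a mean of 1.16 ± 0.14. CG32037, on 3L, had 1.43, 1.49, 1.81, 1.55 and 1.70 and a mean of 1.596 ± 0.16. These genes differed less between pairs than most CG genes did, whose median SD was 0.35, while the median SD of the members was 0.45. CG12343, on 2R, had 0.93, 1.16, 1.24, 1.46 and 0.93 and an SD of 0.22, CG3437, on 3L, had 1.39, 1.005, 1.05, 0.74 and 1.05 and an SD of 0.23, and CG31740, on 2L, had a mean of 1.04 ± 0.24.

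The remaining members are grouped here by the pair in which each was highest. Pair 6 was highest for CG10341 (mean 1.51), CG13217 (1.20), CG32982 (1.17), CG5793 (1.10), CG6398 (1.03), CG31495 (0.96), CG4004 (0.96) and CG1354 (0.95), with pair 6 values from 1.44 in CG1354 to 2.21 in CG10341. Pair 4 was highest for CG8654 (mean 1.46), CG31038 (1.23), CG42562 (1.19), CG5554 (1.12), CG12182 (1.12), CG4098 (1.10) and CG12795 (0.93), reaching 2.12 in CG8654 and 2.05 in CG31038. Pair 3 was highest for CG16700 (mean 1.29), CG10747 (1.10), CG2540 (1.09), CG12926 (1.05) and CG15628 (0.96), and in CG16700 and CG10747 it stood well above the rest, at 2.44 and 2.29 with no other pair above 1.39. CG12054 (mean 1.44) was highest in pair 1 at 1.77, and CG2852 (mean 0.86) in pair 5 at 1.11. CG31038 and CG4004 had 2 probes each, of which 1 had no value, so these genes also rested on 1 measured probe.

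The gene table gave a descriptive synonym or symbol for 14 members and none for the other 47. The 14 had a median mean log ratio of 0.97, the 47 one of 1.44. These 14 lay mostly in the lower part of the range. Which synonyms count as descriptive was judged from the names alone. The comparison was not tested because the means had chosen the members.

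Of the 14, 4 were grouped by synonyms that recall RNA processing, ribosome assembly or a methyltransferase, with means between 0.94 and 1.15. This grouping and those below rest on the names alone. CG12343 has the synonym Syf2, a splicing factor known from yeast, at 1.15 ± 0.22. CG8545 has the synonym NOP2, in yeast a nucleolar protein of ribosomal RNA maturation, and had log ratios of 0.77, 0.43, 0.88, 0.91 and 2.08 in pairs 1, 3, 4, 5 and 6. CG13096 has the synonym UTP30, in yeast a ribosome assembly factor, and had 0.58, 0.73, 0.70, 0.90 and 2.08 with a mean of 0.998 ± 0.61. In CG8545 and CG13096 pair 6 was more than 1 log2 unit above every other pair, and no other pair reached 1. CG9386, with the synonym METTL19, a methyltransferase name, had a mean of 0.94 ± 0.48.

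Genes with synonyms from the ubiquitin system numbered 3, with means between 0.84 and 0.89. CG7611 has the synonym WDR26, in humans a subunit of a ubiquitin ligase, and had a mean of 0.89 ± 0.30. CG15445 has the synonym NUB1, in humans a protein that lowers NEDD8 conjugates, and had a mean of 0.85 ± 0.30. CG11700 has the synonym Ubiquitin and had a mean of 0.84 ± 0.38. Its value is uncertain because ubiquitin genes are near-identical in sequence and a probe can bind transcripts of several.

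The other members with descriptive synonyms fell into small groups. CG6067 (synonym SPH254) and CG12133 (synonym SP15) carry names of the serine protease family and had means of 1.16 and 0.84. Of 2 metabolic genes, CG8036, named Transk after transketolase of the pentose phosphate pathway, had a mean of 0.90 ± 0.31, and CG3961, with the synonym ACSL1, a long-chain acyl-CoA synthetase, had a mean of 1.001 ± 0.27. CG32836 is now NKAIN, named after proteins that interact with the sodium and potassium pump, and had a mean of 0.86 ± 0.26.

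The members' log ratios differed between pairs. The median log ratio of the members was 1.14 in pair 1, 1.17 in pair 3, 1.24 in pair 4, 1.07 in pair 5 and 1.39 in pair 6. Pair 6 was the highest pair of 24 members, pairs 3 and 4 of 13 each, pair 5 of 7 and pair 1 of 4. Over all CG genes pair 6 was the highest pair for 28.8%, pair 3 for 24.8%, pair 1 for 18.8%, pair 4 for 17.9% and pair 5 for 9.73%. The SD of log ratios over all CG genes was 0.82 in pair 6 against 0.61 to 0.70 in the others. Pair 6 was thus also the most spread for CG genes in general. However, pairs 1, 4 and 5 averaged arrays a and b, while pairs 3 and 6 were single arrays. Averaging arrays that differ lowers the spread, so SDs and counts of highest pairs do not compare like with like. The part of the averaging in these differences was not tested. The lowest pair was shared more evenly, with 10 to 14 members in each.

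The rule averaged arrays a and b of pairs 1, 4 and 5, so it did not ask that single arrays pass. Of the 61 members 56 were measured on all 8 arrays, 42 of these were above 0 on all 8, and 29 were at or above 0.3 on all 8. On single arrays, 15 members had a value below 0, 14 of them on 1 array. Array 5a held 6 of these members and array 4a held 4, while arrays 3a and 6a, which had no repeat, held 0 because the rule kept them above 0.3.

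The difference between array b and array a of the same pair was not itself in the rule, but both arrays entered the rule through their average. The selection can therefore affect this difference, while the CG genes set beside the members were not selected. It was compared after the data had been seen, and the values below are a description. Array b was above array a in all 3 repeats for 18 of 56 members (32.1%) and below it in all 3 for 10 (17.9%). Over 2070 CG genes measured on all 8 arrays, these shares were 15.4% and 19.9%. The median size of the difference was 0.74 log2 units in members and 0.48 in all CG genes. In the limma fit of this difference, 0 of 56 members and 0 of 6834 features (0%) were called at the adjusted threshold. At an unadjusted p below 0.05, 17 of 56 members passed, 11 of them with array b higher, beside 645 features (9.44%).

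Pair 6, which has 1 array and whose values were among those that chose the members, was set beside these classes as a description. Of the 18, 11 had pair 6 as their highest pair, with a median log ratio of 1.93 in pair 6 and 1.16 in pair 3. Of the 10 that were lower on array b, 2 had pair 6 highest, with medians of 1.29 in pair 6 and 1.86 in pair 3. Of the 28 members without 1 direction in the 3 repeats, 10 had pair 6 highest, with medians of 1.29 in pair 6 and 0.9999 in pair 3. Over all probes, array 6a correlated with arrays 1b, 4b and 5b at 0.52, 0.54 and 0.47, with 1a, 4a and 5a at 0.28, 0.31 and 0.36, and with 3a at 0.44, as a description across probes that are not independent. Arrays a and b of a pair correlated at 0.28 to 0.41, with a median of 0.29. This was lower than between arrays of different pairs, where the median was 0.38 over 13 couples with the same letter and 0.42 over 12 couples with different letters, and where 4b with 5b reached 0.61. With the pair as a random block, limma estimated a correlation within pairs of -0.20. The average of arrays a and b thus joined arrays that resembled each other no more than arrays of other pairs did. What separates the arrays named b from those named a is not given in the sources used here, and its part in the members' values was not tested.

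**Figure D3:**
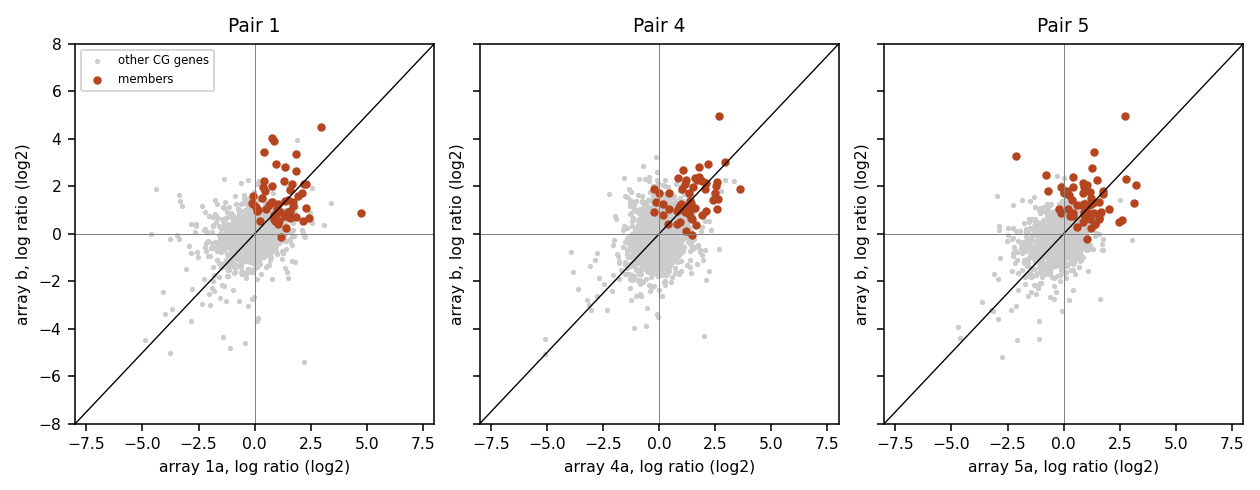
Log ratio on array b (log2, vertical axis) against log ratio on array a (log2, horizontal axis) in pairs 1, 4 and 5, 1 panel each, with members in red, other CG genes in grey and a diagonal of equality. Members lie on either side of the diagonal, and in pair 5 the point at -2.14 on array a and 3.28 on array b is CG11327.

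The dye that labelled the mutant was not part of the rule except that both orientations had to be above 0.3. A limma fit with a dye term called 0 of 61 members and 0 of 8306 features (0%) at the adjusted threshold. Unadjusted, 3 members had p below 0.05 beside 336 features (4.05%), and 27 of 61 members had the larger mean with the mutant in Cy5. CG10916 averaged 2.17 in pairs 1 and 3 and 1.17 in pairs 4, 5 and 6. CG31038 averaged 0.60 and 1.64, and CG12795 averaged 0.55 and 1.18, in the same order.

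The members were spread over the major chromosome arms much as the measured CG genes were. Arm 2L held 11 (18%), 2R held 14 (23%), 3L held 11 (18%), 3R held 13 (21.3%) and X held 12 (19.7%), beside 17.4%, 19.4%, 18.4%, 25.4% and 18.8% of the measured CG genes. Chromosome 4, with 8 measured CG genes, held 0. The 103 CG genes that met the mirrored rule lay more often on 2R (31, 30.1%) and 3L (33, 32%), a difference that was not tested.

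The nearest protein-coding gene on each side of every member gave 118 neighbours that were not members, of which 66 were tested. Limma called 7 of the 66 higher (10.6%) and 6 lower (9.09%), and did not call 53. Among 2524 tested neighbours of the other CG genes the shares were 7.21% higher and 10.8% lower. Members were left out of the first set but not of this one, and every member was called higher. The sets are therefore not alike. The neighbours' median log ratio was 0.02, beside -0.05 for neighbours of the other CG genes. The genes next to members were thus close to 0 for the most part, and the difference in shares was not tested.

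The 7 neighbours called higher had mean log ratios between 0.50 and 0.99. Snap29, a SNARE protein of membrane fusion beside CG5554, was at 0.75 (limma adjusted p = 0.0078), and CG31278, beside CG31373, was at 0.79 ± 0.26 (limma adjusted p = 0.0095). Both passed whichever pair was left out, with limma adjusted p of at most 0.0344 and 0.0387. Obp93a, named as an odorant-binding protein and beside CG5793, was at 0.99 with 4 pair values, and CG8032, beside CG8036, was at 0.93. Tsp42Ej, a tetraspanin gene beside CG12842, and CG13097, beside CG13096, were at 0.50 each. CG16815, beside CG16813, was at 0.86. The calls of these 5 genes were lost when a pair was left out: those of Tsp42Ej, CG13097 and CG16815 without any of the 5, with adjusted p up to 0.118, 0.111 and 0.125, that of Obp93a without pair 1, 4 or 5 (up to 0.0659), and that of CG8032 without pair 1, 3, 5 or 6 (up to 0.0752).

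The 6 neighbours called lower were 9.09% of the 66 tested. This share lay beside 11.4% of all features and 10.8% of neighbours of the other CG genes, a set from which members were not left out. Beside CG15098, the member with the largest mean, CG15083 had a mean log ratio of -1.44 ± 0.50 (limma adjusted p = 0.0042), and CG15082 on the other side was at -0.04. Dgt5, a subunit of the augmin complex of the mitotic spindle whose gene overlaps CG8545, was at -1.53 (limma adjusted p = 0.0042). Leaving out 1 pair kept both calls, with adjusted p of at most 0.0199 and 0.02. Socs16D, a suppressor of cytokine signalling beside CG6398, was at -0.98, CG10555, beside CG15345, at -0.86, ATPsynC, a subunit of mitochondrial ATP synthase beside CG12054, at -0.61, and Uggt, a glycoprotein folding sensor beside CG3961, at -0.61. These calls were lost without pair 5 for all 4 genes, and also without pair 1 or 4 for CG10555 and ATPsynC and without pair 3, 4 or 6 for Socs16D, with adjusted p of up to 0.13.

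**Figure D4:**
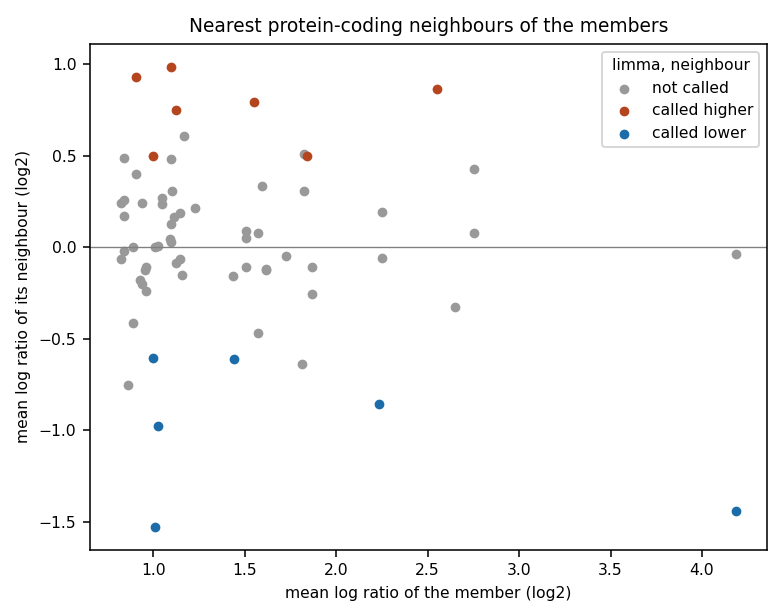
Mean log ratio of each tested neighbour (log2, vertical axis) against the mean log ratio of the member it adjoins (log2, horizontal axis), with neighbours called higher by limma in red, called lower in blue and not called in grey. Most neighbours lie near 0 whatever the member's value, and CG15083 at -1.44 lies beside CG15098 at 4.19.

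Members adjoined each other at 2 places. CG3552 and CG3437, on 3L, have overlapping gene models and means of 1.44 ± 0.30 and 1.05 ± 0.23. CG3552 had log ratios of 1.32, 1.17, 1.46, 1.30 and 1.94 in pairs 1, 3, 4, 5 and 6, and its highest pair, pair 6, was not that of CG3437, which was pair 1. In all, 21 members overlap a nearest gene, and without probe sequences signal from overlapping genes cannot be told apart here.

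The other place, on 2L, joined CG15480 and CG16813, and its surroundings were followed after these values were seen. CG15480 had log ratios of 1.94, 0.63, 0.995, 0.95 and 3.02 in pairs 1, 3, 4, 5 and 6, with a mean of 1.51 ± 0.98. The next gene after CG16813 is CG16815, with log ratios of 0.72, 0.47, 0.18, 0.93 and 2.02 and a mean of 0.86 ± 0.70. Pair 6 was the highest pair of all 3 genes and pair 1 or 5 came next. Beyond Prosalpha6T, which had no value, lies Mabi, with 1.42, 2.94, 0.39, 1.32 and 1.90 and a mean of 1.59 ± 0.93 (limma adjusted p = 0.0149, and at most 0.0447 with 1 pair left out). Mabi was highest in pair 3, unlike the other 3.

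The gene table gives CG16813, CG16815 and Mabi the synonyms DM26, DM27 and DM2. The stretch and its edges were chosen after the values were seen, so the low values on each side are a description. Upstream in chromosome order, CG16812 was at 0.05, Ski6, an exosome subunit, at -0.40 and mRF1, a mitochondrial translation release factor, at 0.06. On the other side Jhbp14 and Jhbp13, named as juvenile hormone-binding proteins, were at -0.01 and 0.03.

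**Figure D5:**
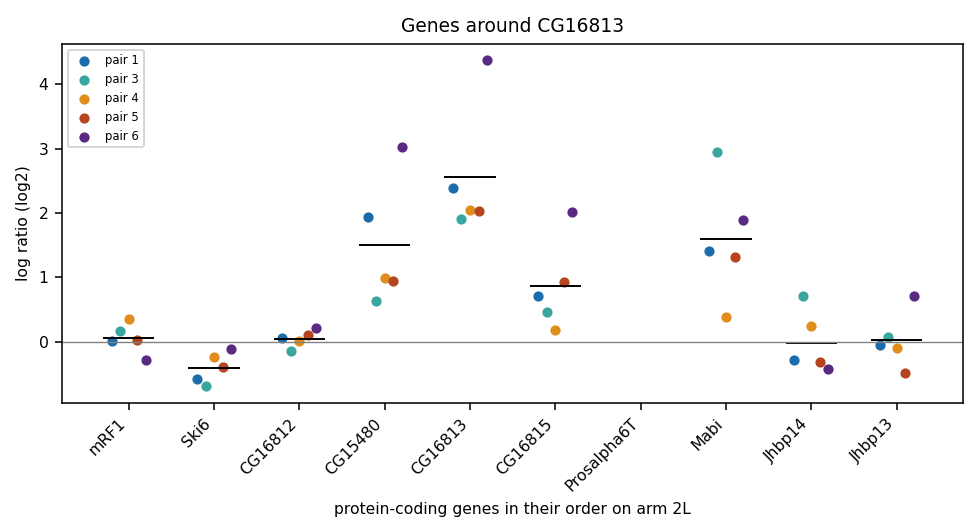
Log ratio (log2, vertical axis) in each of the 5 pairs (coloured points) with the mean (bar) for 10 protein-coding genes in their order on arm 2L, a stretch chosen after its values were seen. CG15480, CG16813, CG16815 and Mabi have every pair above 0, while the means of the genes at the edges lie between -0.40 and 0.06.

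CG31373 and its neighbour CG31278, on 3R, share the synonyms CG6482 and PDF in the gene table. PDF was counted above as a descriptive synonym, but what it stands for is not given there, so no function is read from it. CG31373 had log ratios of 1.38, 1.14, 2.56, 0.86 and 1.83 in pairs 1, 3, 4, 5 and 6, and CG31278 had 0.64, 1.12, 0.48, 0.74 and 0.99. The pairs ranked them differently, with pair 4 the highest for CG31373 and the lowest for CG31278. Probe sequences were not used here, so whether their probes also bind each other's transcripts was not examined.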

How the data were processed

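The deposited values were log2 ratios of mutant over control for 14569 probes on 8 arrays, as read here. What log base, normalization and scaling the authors used is not given in the sources used here. A base of 10 would not allow the largest size, 7.43, in a 16-bit scan (at most 4.82), while a natural log is possible and would make folds larger. The number of arrays limits the precision.

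Of the probes, 12657 had 1 symbol in the platform annotation, 96 several and 1816 none. The gene table (assembly Release 6 plus ISO1 MT) served only for names, neighbours and arms. It matched 11375 genes by identifier, 101 by accession and 466 by synonym, and 37 were not matched. Among the members, 58 matched by identifier and 3 by synonym.

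Values of 0 were set aside, and probes, then arrays a and b, were averaged. Means over at least 4 pairs were tested against 0, two-sided, with limma 3.58.1 in R 4.3.3 (8306 features, Benjamini-Hochberg adjustment), a procedure also tested on simulated data. Named are the 12 largest means, the 5 smallest and 5 largest SDs, members with an updated symbol, several probes, a dye term or a far pair, members near a threshold, adjoining members and called neighbours. Every member is listed. Members, lists and rules were chosen with earlier results of these data known. Alternatives changed the repeat arrays used, centring, scaling, zeros, thresholds, log base, direction and the pairs included.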

Additional observations from a re-analysis of the deposited data

Results flagged for a closer look

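In 5 of the 61 members 1 pair lay farther from the other 4 than Dixon's 95% critical value of 0.71 for 5 values allows. That value is set so that chance passes about 1 in 20 groups, but the rule chose the members on these same pair values and left little room on the low side, so the count is a description. Over the 2394 CG genes with 5 pair values, 143 (5.97%) had such a pair, the far value was high in 76 and low in 67, and in 34 (1.42%) it was high and in pair 6. The far value was the high one in pair 6 for 4 of them. CG15098 was at 5.99 in pair 6, with 3.85 the nearest of the other pairs, and CG16813 was at 4.37, with 2.40 the nearest. CG13096, with the ribosome assembly synonym UTP30, was at 2.08 against a next value of 0.90, and CG4004 was at 1.85 against 0.90. In CG2852 the far value was the low one, 0.39 in pair 4, with 0.93 the nearest. Pair 6 has 1 array with no repeat, so its values could not be set against a repeat array, and the cause of these values was not tested.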

How the results depend on the processing

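With 1 pair left out, fewer pairs had to pass, and 54 to 60 of the 61 members were kept. The count of genes by the rule was then between 60 and 75. It was 43 with array a alone and 69 with array b where present, of which 34 and 55 were among the 61, and 74 after centring each array. Read as Cy5 over Cy3 it was 0, and as a natural log 109. The median of the members' means was 1.69 as a natural log, 1.48 with the mean at or above 1, 1.02 with it at or above 0.6 and 1.44 with each pair at or above 0.5, and 1.17 to 1.27 with 1 pair left out.

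Limma called 175 of 2686 CG genes higher. This became 64 with array a alone, 45 with zeros kept, 0 as Cy5 over Cy3, 45 at an adjusted p below 0.01, 283 below 0.1, and 81 to 125 with 1 pair left out. Among these called CG genes, members numbered 38 with array a alone, 24 with zeros kept and 54 to 61 with 1 pair left out. These fits used values that had chosen the members, so nothing is read from the member counts. The shares over all features were not given for these settings. Neighbours called higher fell from 7 to 0 with array a alone and to 2 to 3 with 1 pair left out. Neighbours called lower fell from 6 to 3 with array a alone and to 2 to 6. Of the named neighbours and Mabi, those called with array a alone were CG15083, dgt5 and Mabi, while Obp93a had no value there. A dye term ended the calls of CG16815, Tsp42Ej, Obp93a, Socs16D and CG13097 (adjusted p 0.0581 to 0.0833), array b those of CG16815 and Tsp42Ej (0.0564 and 0.153), and centring that of Socs16D (0.0619). The dye term gave 3 members and the repeat array difference 17 without adjustment. The causes of these differences were not tested.

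Of 671 member means under 11 settings, 669 moved by less than 1 SD and 0 changed sign. Much of this was fixed in advance. Dropping 1 of 5 pairs cannot move a mean by 1 SD, and pairs all at or above 0.3 cannot give a mean below 0. The probe median changed nothing because each member had 1 measured probe. The counts are therefore a description. Moves of over 1.5 times numbered 6, in 5 genes. With array a alone CG14736 moved from 2.65 to 1.38, CG11327 from 1.81 to 1.13 and CG31495 from 0.96 to 0.55 (1.37 with array b). With zeros kept CG14736 moved to 1.5995, CG31038 from 1.23 to 0.61 and CG4004 from 0.96 to 0.48, the latter 2 genes because their unmeasured probe then counts as 0. The comparisons of protein relatives, proteins and promoters were not run because no sequences were used here.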
